A study of Homo sapiens with 3 samples.

Results

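The enzymes described here make serine and glycine, pass 1-carbon units through folate and methionine, and build purine, pyrimidine and deoxyribonucleotides. They are 43 genes, chosen by name from the 62754 in the gene tables, and each was found exactly once. They were read in 3 RNA-seq libraries of wild-type primitive neural progenitor cells (pNPCs), an early neural stage kept dividing in culture. All 3 libraries form 1 group, labelled wild type and H1, an established human embryonic stem cell line, with no allele named. The cells grew with FGF2 (20 ng/ml), the GSK3 inhibitor CHIR99021 (3 µM), LIF (10 ng/ml), the TGF-beta receptor inhibitor SB431542 (2 µM) and the ROCK inhibitor Y-27632 (10 µM). With a single group and a single parental line, the data give levels and their spread between libraries, and no contrast of conditions. Whether the replicates came from separate cultures is not stated, so p-values reflect only how these samples vary, and that variation may be technical.

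Serine is made from a glycolytic intermediate in 3 steps, and serine hydroxymethyltransferase then hands its side-chain carbon to folate, leaving glycine. Folate carries that carbon in parallel enzyme chains in the cytosol and in mitochondria, and the carbon ends up in purine rings, in thymidylate or in methionine. Dividing cells need all these products for DNA, RNA and methylation. In the embryo folate supply is known for its part in closure of the neural tube.

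Replicate 1 totalled 34658454 expected counts, replicate 2 had 38400092 and replicate 3 had 30038114. Levels are given as TPM, which is scaled for transcript length and so can be compared between genes, and a gene is called detected when it reached 1 TPM in all 3 libraries. Of the neural progenitor markers checked, 6 of 8 were detected, with VIM at 1912 ± 194 TPM (mean ± SD, n = 3), NES at 181 ± 21.1 TPM and SOX2 at 69.2 ± 26.2 TPM. PAX6, a common progenitor marker, stood at 0.44 ± 0.34 TPM and was not detected. The pluripotency factors POU5F1 and NANOG stood at 0.11 ± 0.03 and 0.020 ± 0.026 TPM. Markers of other cell types were detected too, 5 of 5 for neural crest, 6 of 6 for mesenchyme and 6 of 6 for neurons, against 0 of 5 microglia markers. By the same rule 62.2% of protein-coding genes were detected. POSTN (mesenchyme) and SYT1 (neuron) lay near the minimum, at 1.90 ± 0.54 and 2.44 ± 0.42 TPM. Bulk RNA cannot tell a lower number of cells of a type from less RNA per cell.

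All 43 enzymes were detected, where 62.2% of protein-coding genes and 23.0% of all genes were. Their mean levels ran from 9.46 ± 1.54 TPM for DHODH to 520 ± 53.0 TPM for PHGDH, a 55.0-fold range. Their median was 80.6 TPM, against 21.0 TPM for detected protein-coding genes, and 19 of 43 had a mean of at least 100 TPM, against 11.7% of detected protein-coding genes. On the log2(TPM + 1) scale the member median was 6.32, 6.30 and 6.33 in replicates 1, 2 and 3, while that of all detected protein-coding genes was 4.30, 4.51 and 4.54. The deoxynucleotide branch had the highest median, 6.91 ± 0.15, and the pyrimidine branch the lowest, 5.33 ± 0.23. In CPM, without length scaling, mitochondrial folate was highest at 6.92 and serine and glycine lowest at 5.69. In the order of mean levels, 38 of 42 neighbouring members had overlapping values. The breaks without overlap came below PHGDH, below TYMS, below PSAT1 and below PRPS1.

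**Figure D1:**
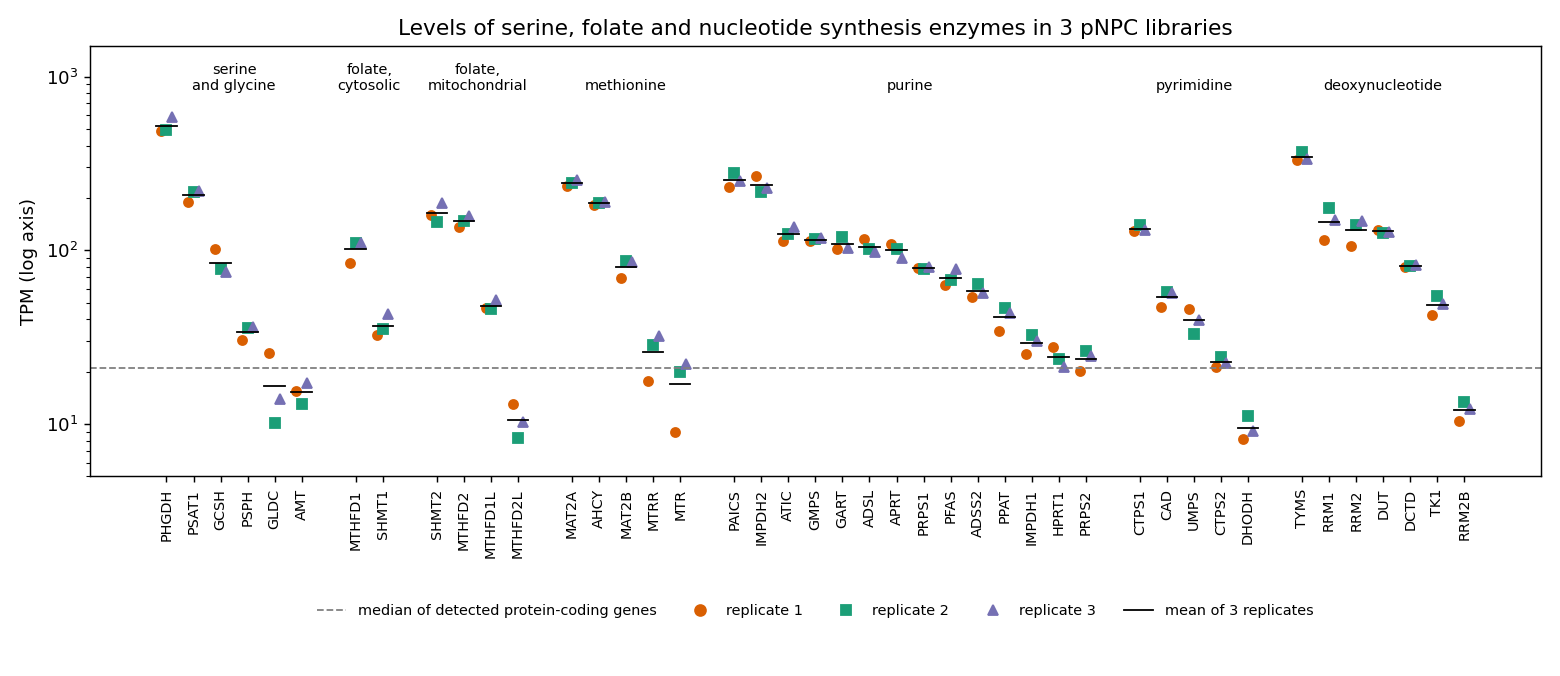
Level of each of the 43 enzymes (TPM, log axis) by branch, with 1 symbol per replicate and a line at the mean of 3. PHGDH and TYMS stand at the top, most members lie above the dashed line at 21.0 TPM, the median of detected protein-coding genes, and GLDC and MTR have the widest gaps between replicates.

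Serine synthesis was the branch with the single highest enzyme. PHGDH (ENSG00000092621.13, GRCh38 chromosome 1, 119711934 to 119744215), the dehydrogenase that starts the pathway, had 485, 495 and 582 TPM in replicates 1, 2 and 3, from 16975, 16865 and 15301 expected counts. It was the highest member by TPM in each library. In CPM, without length scaling, PAICS was above PHGDH in replicate 2 (457 against 439). PSAT1, the aminotransferase of the next step, had 189, 216 and 219 TPM. PSPH, the phosphatase that releases serine, had 30.4, 35.8 and 36.1 TPM. The order along the pathway was thus a steady descent in every library, and the values of the 3 genes did not overlap.

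The glycine cleavage system, a mitochondrial complex that breaks glycine down to a folate-bound carbon, was unevenly represented. GCSH, its lipoate-carrying H protein, had 102, 77.6 and 74.6 TPM. GLDC, the decarboxylase that acts on glycine itself, had 25.6, 10.1 and 13.9 TPM, and AMT, the aminomethyltransferase, 15.4, 13.0 and 17.1 TPM. Replicate 1 held the highest GLDC value by a wide margin, while the AMT values overlapped those of GLDC. GLDC reached 0.189 ± 0.0602 of the GCSH level by TPM, lower in 3 of 3 libraries, and 0.369 by counts. Its order against AMT was not fixed, since GLDC was higher in replicate 1 only (difference 0.69, -0.34 and -0.28 on the log2(TPM + 1) scale). In CPM, which is not scaled for length, GLDC was higher than AMT in all 3 libraries, by 0.56 on the log2 scale. DLD, the remaining subunit, which also serves other dehydrogenase complexes, stood at 61.5 ± 1.97 TPM. A gene without a symbol on the same strand shares exons with AMT and held 29.9% as many counts as AMT, so the AMT level depends on how reads were divided. CBS, which starts the route from homocysteine to cysteine, was the highest gene of the wider glycine and methionine list, with 89.1, 116 and 162 TPM, and a near-identical copy makes its level uncertain.

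Among folate enzymes the mitochondrial side carried the more abundant hydroxymethyltransferase. SHMT2, the mitochondrial form, had 160, 146 and 187 TPM, and SHMT1, the cytosolic form, had 32.4, 35.0 and 43.1 TPM. The 2 sets of values did not overlap, and the SHMT2 level was 4.48 ± 0.404 times that of SHMT1. MTHFD2, the mitochondrial dehydrogenase and cyclohydrolase, had 137, 148 and 157 TPM. MTHFD2L, its paralog in the same compartment, had 13.1, 8.27 and 10.3 TPM. That is a ratio of 14.5 ± 3.80, the widest among the isozyme pairs with both genes in the set of 43. The lowest count behind any member belonged to MTHFD2L, 348 in replicate 3 (Poisson 95% interval 312 to 387, counting error only).

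The formate-producing step went the other way. MTHFD1L, the mitochondrial synthetase, had 46.4, 46.0 and 51.7 TPM. MTHFD1, a cytosolic protein that combines the synthetase with the dehydrogenase and cyclohydrolase, had 85.0, 110 and 111 TPM. The MTHFD1L level was 0.477 ± 0.0646 that of MTHFD1, lower in 3 of 3 libraries. Summed over SHMT2, MTHFD2, MTHFD2L and MTHFD1L, mitochondrial enzymes held 356, 348 and 406 TPM, and SHMT1 with MTHFD1 held 117, 145 and 154 TPM. The ratio of the sums was 3.03, 2.40 and 2.64. It sets 4 genes against 2, and the log2 ratio of 1.42 ± 0.17 became 0.42 when the mean per gene was taken.

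Folate genes outside the 43 were read from a list of 14. Of these 10 were detected, where 62.2% of protein-coding genes were. Among them was GGH, which trims polyglutamate from folate, at 75.0 ± 4.80 TPM. The formyltetrahydrofolate dehydrogenases were scarce, with the cytosolic ALDH1L1 at 3, 9 and 4 counts. The mitochondrial ALDH1L2 had 0.89, 2.34 and 2.71 TPM, lowest in replicate 1. It was the 1 gene among 43 tested from the wider pathway lists called for excess spread between replicates (edgeR, adjusted p = 0.0364), and the call was lost in edgeR once counts had been adjusted for transcript length (adjusted p = 0.161).

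In the methionine branch the genes that make S-adenosylmethionine and hydrolyse S-adenosylhomocysteine were, by TPM, far above those that remake methionine. MAT2A, the catalytic subunit that makes S-adenosylmethionine outside the liver, had 236, 244 and 255 TPM. Its regulatory partner MAT2B had 69.2, 86.6 and 86.2 TPM, so the catalytic subunit was 3.06 ± 0.306 times higher. The liver form MAT1A had 11, 5 and 2 counts. AHCY, which hydrolyses the product left after methylation, was by TPM among the steadiest members, at 183, 187 and 189 TPM. MTR, the cobalamin-dependent methionine synthase that takes its methyl group from folate, had 9.03, 19.8 and 22.1 TPM. MTRR, the reductase that reactivates MTR, had 17.6, 28.6 and 32.2 TPM. By TPM, replicate 1 lay below the other libraries for both genes. In CPM, without length scaling, MTR had 66.25, 124.9 and 141.4 and MAT2B 92.42, 107.4 and 107.6. MTR was thus above MAT2B in replicates 2 and 3, while MAT2A and AHCY stayed above MTR in each library.

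Purine synthesis builds inosine monophosphate on phosphoribosyl pyrophosphate, and 6 genes encode the chain. PPAT, the amidotransferase of the committed step, was the lowest of them by TPM in each library, at 34.4, 46.7 and 43.5 TPM. In CPM, without length scaling, ATIC was below PPAT in replicate 2 (95.5 against 98.1). GART, a 3-activity enzyme, had 102, 119 and 104 TPM, and PFAS, the amidotransferase that follows, 63.1, 67.2 and 77.8 TPM. PAICS, which carries the next carboxylation and ligation, was the highest of the chain in each library, at 232, 277 and 251 TPM. ADSL, the lyase also used to make AMP, had 115, 102 and 98.2 TPM. ATIC, which adds the last folate carbon and closes the ring, had 112, 124 and 137 TPM.

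PPAT and PAICS have start sites that lie head to head on chromosome 4, so the stretch between these sites is shown. In the RefSeq windows of GRCh38.p14, which hold 250 bases before and 50 after a gene's start, PPAT starts at 56435615 on the minus strand and PAICS at 56435752 on the plus strand. This PAICS start was taken because it lies within 250 bases of the PPAT start. The whole RefSeq span of PAICS begins earlier, at 56410507, within the span of PPAT. The 136 bases between the 2 start sites (chr4:56435616-56435751, plus strand, 75.0% G or C) hold none of the motif letters searched on both strands. These were the E-box CACGTG, the CCAAT box, the E2F forms TTTCGCGC or TTTGGCGC or TTTCCCGC, and the amino acid response letters TGATGNAAT.
PPAT to PAICS: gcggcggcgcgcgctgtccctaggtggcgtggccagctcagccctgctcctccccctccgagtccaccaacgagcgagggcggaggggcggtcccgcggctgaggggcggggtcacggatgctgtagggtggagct
The genes with these start sites differed in level, with PAICS 6.15 ± 0.522 times PPAT and higher in 3 of 3 libraries. A CACGTG lies beyond the stretch, at bases 41 to 46 from the PAICS start used, and the PPAT window holds the same bases.

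Windows were found for 37 of the 43 members, and 3 more are shown. Their enzymes stand at steps where folate carbon is loaded, spent in purines or spent in thymidylate. Each gives the 100 bases before the start, 5′ to 3′ on the plus strand, on which all 3 genes lie, with matched motif letters in capitals.
ATIC (chr2:215311959-215312058): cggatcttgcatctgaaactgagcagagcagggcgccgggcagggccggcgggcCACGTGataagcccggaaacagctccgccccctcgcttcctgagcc
MTHFD1 (chr14:64388253-64388352): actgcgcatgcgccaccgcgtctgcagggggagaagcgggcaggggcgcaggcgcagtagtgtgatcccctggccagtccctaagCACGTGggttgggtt
TYMS (chr18:657553-657652): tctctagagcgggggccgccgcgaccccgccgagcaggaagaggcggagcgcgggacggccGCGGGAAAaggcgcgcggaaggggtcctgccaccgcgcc
The capitals mark CACGTG, the E-box letters read by MYC-type factors, in ATIC and MTHFD1, and in TYMS the reverse complement of TTTCCCGC, a form of the E2F site. The 3 shown all hold such letters and so are not typical of the members. SHMT1 and GART also load or spend folate carbon and have windows, which are not shown. In all, 6 of 37 members had CACGTG in a window (ATIC, DHODH, MTHFD1, MTHFD1L, PAICS and PPAT), against 8.77% of all genes with a window. For PAICS and PPAT these are the same bases, counted once for each gene. Any of the 3 E2F forms occurred in 6 of 37 (AHCY, DUT, GART, MTR, PRPS2 and TYMS), against 3.30%, and CCAAT in 19 of 37, against 39.7%. The amino acid response letters TGATGNAAT occurred in MTHFD1L alone of the 37, against 1.22%. The E2F forms overlap in part, and DUT held both TTTGGCGC and TTTCCCGC. A match is a description of letters and not a site shown to be bound.

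After inosine monophosphate the guanine arm held the larger transcript. IMPDH2, the main dehydrogenase of guanine nucleotide synthesis, had 267, 217 and 227 TPM, highest in replicate 1. IMPDH1, its isozyme, had 25.3, 32.5 and 29.9 TPM, so IMPDH2 stood 8.27 ± 2.03 times higher. GMPS, which completes GMP, had 114, 115 and 117 TPM and was among the members with the least spread by TPM. On the adenine arm ADSS2 had 53.6, 64.1 and 56.6 TPM, 5.57 ± 0.580 times its muscle-type isozyme ADSS1 at 10.5 ± 1.03 TPM, and 10.7 times by counts.

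Other purine genes supply the substrate or salvage free bases. PRPS1, which makes phosphoribosyl pyrophosphate, had 79.0, 77.9 and 79.6 TPM, by TPM the smallest relative spread of any member (coefficient of variation 1.14%). In CPM, without length scaling, PRPS1 was less even, at 92.7, 82.3 and 81.5. Its X-linked paralog PRPS2 had 20.1, 26.3 and 24.6 TPM, a ratio of 3.38 ± 0.502 in favour of PRPS1. HPRT1, the salvage enzyme for hypoxanthine and guanine, had 27.9, 23.8 and 21.2 TPM. APRT, the salvage enzyme for adenine, had 108, 102 and 90.2 TPM. HPRT1 thus stood at 0.242 ± 0.0134 of the APRT level by TPM and 0.533 by counts, which are not scaled for length. Beyond these, 9 of 13 listed genes of purine interconversion were detected, where 62.2% of protein-coding genes were. Among them was the guanylate kinase GUK1 at 181 ± 24.0 TPM.

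Pyrimidine synthesis was the lowest branch by median TPM, although its last enzyme was abundant. CAD, the protein that joins the first 3 activities, had 46.9, 57.3 and 57.0 TPM. DHODH, the dehydrogenase on the mitochondrial inner membrane, was the lowest of all 43 by mean, with 8.15, 11.2 and 9.08 TPM from 566, 703 and 526 counts. UMPS, which makes uridine monophosphate, had 46.1, 33.1 and 39.8 TPM. CTPS1, the CTP synthase of dividing lymphocytes and other proliferating cells, had 129, 140 and 131 TPM. CTPS2, its isozyme, had 21.4, 24.1 and 22.5 TPM. Their ratio of 5.88 ± 0.129 was the steadiest of the isozyme ratios computed.

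Deoxynucleotide enzymes included the second highest member. TYMS, which makes thymidylate with a folate carbon, had 330, 366 and 333 TPM. RRM1 and RRM2, the large and small subunits of the S-phase ribonucleotide reductase, had 115, 174 and 149 TPM and 105, 141 and 147 TPM. The 2 subunits were close, with RRM2 at 0.904 ± 0.0905 of RRM1, and the difference of -0.15 ± 0.15 on the log2(TPM + 1) scale was no larger than its SD. RRM2B, the p53-induced small subunit, had 10.4, 13.4 and 12.2 TPM, and the RRM2 level was 10.9 ± 1.00 times that of RRM2B by TPM and 6.04 times by counts. DUT, which removes dUTP, and DCTD, which deaminates dCMP towards thymidylate, were steady by TPM, at 128 ± 3.21 and 81.4 ± 1.45 TPM. In CPM, without length scaling, both fell from replicate 1 to 3. DUT had 81.3, 74.0 and 71.9, and DCTD had 82.9, 74.2 and 70.7. TK1, the cytosolic thymidine kinase of S phase, had 42.4, 54.6 and 48.8 TPM, 5.03 ± 1.10 times the mitochondrial TK2 by TPM and 2.82 times by counts. Of 15 further genes of these branches 14 were detected, where 62.2% of protein-coding genes were. They were led by the nucleoside diphosphate kinases NME2 at 770 ± 53.2 TPM and NME1 at 388 ± 21.6 TPM. These kinase genes lie side by side and are close copies, so that their split is uncertain.

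In all, 17 pairs of isozymes or partner enzymes were compared within libraries. The first-named gene was higher in 3 of 3 libraries for 12 pairs, a count that depends on the order of naming. Whatever the order, 16 pairs kept 1 sign in all libraries. For each of those 16 an exact permutation test that flips signs, two-sided, gave p = 0.25 (n = 3, Benjamini-Hochberg adjusted 0.266). That is the smallest p that 3 libraries allow, so none could reach 0.05. The pair without a fixed sign by TPM was GLDC and AMT (exact permutation p = 1, n = 3).

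**Figure D2:**
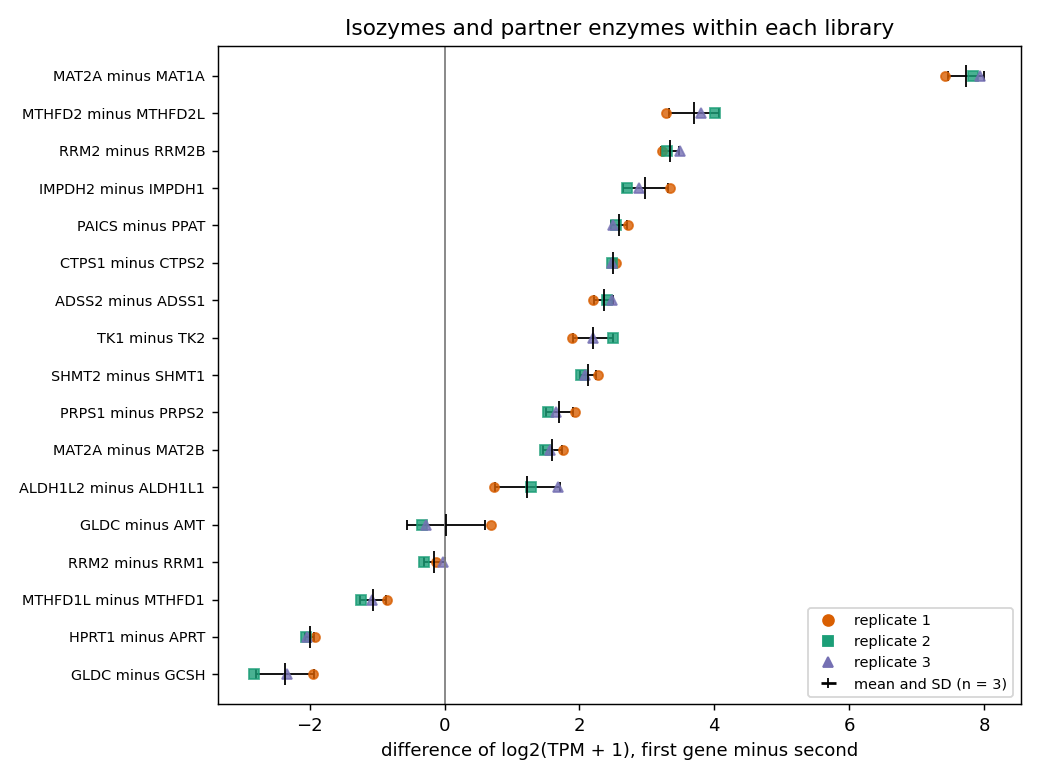
Difference of log2(TPM + 1) between the genes of each pair (first minus second) in each of 3 replicates, with the mean and SD. Apart from GLDC minus AMT, which crosses 0, and RRM2 minus RRM1, which lies next to it at -0.15, the symbols of each pair stay well to 1 side.

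The median coefficient of variation of the members' TPM was 11.0%, against 13.7% for detected protein-coding genes, which lie lower in level. The spread was tested in edgeR by asking whether a gene's counts varied more than genes of like abundance. None of the 43 passed an adjusted p of 0.05, where 1.59% of the 17046 genes tested did. On simulated data the test missed differences of the size seen for GLDC and MTR, so the lack of calls does not show a low spread. At an unadjusted p under 0.05, which 7.35% of all genes met, there were 2 members, GLDC and MTR. With DESeq2's size factors and dispersion trend the counts were again 0 adjusted and 2 unadjusted.

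GLDC (chromosome 9, 6532467 to 6645729) and MTR (chromosome 1, 236795281 to 236903981) lay on opposite sides in replicate 1. GLDC had 1446, 694 and 752 counts, and replicate 1 lay 0.99 log2 CPM above the average of replicates 2 and 3. MTR had 2296, 4796 and 4246 counts and a deviation of -0.99 log2 CPM there. Their adjusted p-values for excess spread in edgeR were 0.222 and 0.31. MTR has an effective length of 10019, 9318 and 9474 bases, the longest of the members, and long transcripts as a class were low in replicate 1. The 3306 genes over 4000 bases had a median deviation of -0.41 there, and the 3 members among them, MTR, CAD and RRM2B, -0.58, while genes under 1000 bases had 0.26. With a smooth curve for effective length taken out, the MTR deviation was -0.24 (edgeR adjusted p = 1) and that of GLDC 1.01 (edgeR adjusted p = 0.0462). GLDC then was the 1 member called, where 1.84% of all genes were.

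**Figure D3:**
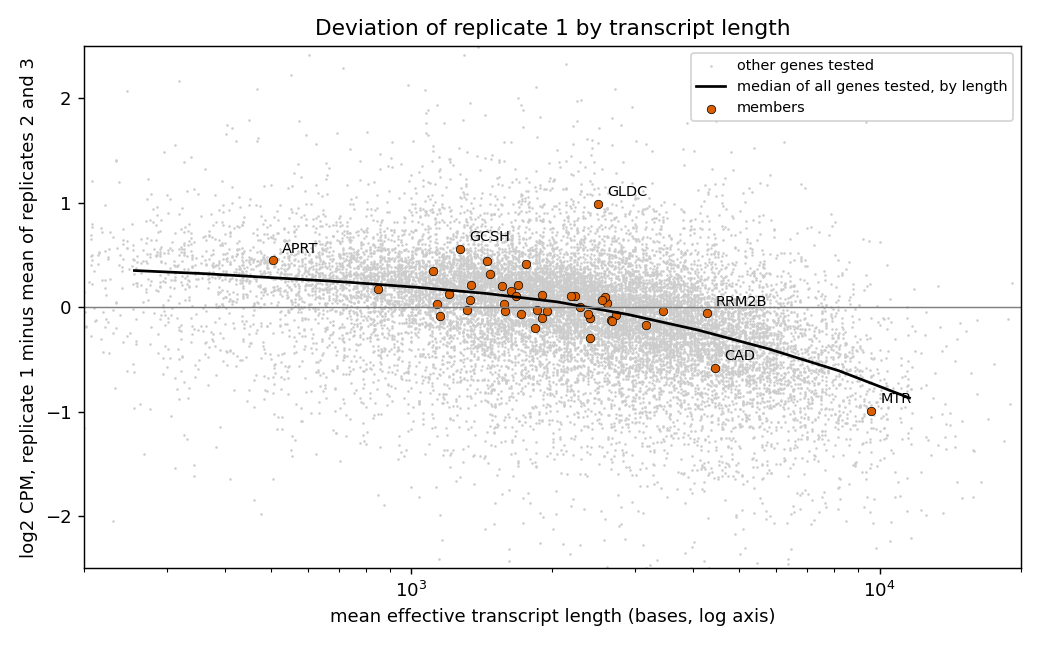
Deviation of replicate 1 from the mean of replicates 2 and 3 (log2 CPM) against mean effective transcript length (bases, log axis) for all genes tested, with members as filled circles and the median of all genes as a line. MTR at -0.99 lies near the falling line and GLDC at 0.99 lies far above it.

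Cell type markers differed between libraries as well, and replicate 2 stood as far apart as replicate 1. The median neural progenitor marker deviated by 0.94, -0.64 and -0.09 log2 CPM in replicates 1, 2 and 3 and the median neuron marker by 0.63, -0.68 and -0.27. The median mesenchyme marker deviated by -0.78, 0.84 and -0.15. GLDC itself had 0.99, -0.83 and -0.16. Of the markers, HES5 (progenitor), STMN2 (neuron) and COL1A1 (mesenchyme) were called for excess spread in edgeR (adjusted p = 0.0034, 0.00486 and 0.00966). HES5 had 6.76, 0.72 and 5.66 TPM, STMN2 14.4, 3.61 and 6.42 TPM, and COL1A1 4.62, 18.3 and 12.9 TPM. With effective length taken out, the setting at which GLDC was called, these 3 were joined in edgeR by SOX2 and SOX1 (progenitor, adjusted p = 0.00923 and 0.00952) and by PRRX1 and LUM (mesenchyme, adjusted p = 0.00424 and 0.000469). SOX1, PRRX1 and LUM were named after their values were seen. SOX2 had 97.8, 46.3 and 63.4 TPM and SOX1 8.16, 3.28 and 5.19 TPM, highest in replicate 1 and lowest in replicate 2, the order seen for GLDC. The list was not uniform. Of its 8 progenitor markers, 4 had their highest TPM in replicate 1, 3 in replicate 2 and 1 in replicate 3. For the 12354 detected protein-coding genes these counts were 3092, 4202 and 5060. NES had 156.6, 194.5 and 191.4 TPM, lowest in replicate 1. VIM, which makes up most of the progenitor sum, had 1899, 2113 and 1724 TPM. Summed marker levels in replicates 1, 2 and 3 were 2383, 2504 and 2174 TPM for neural progenitors, 573, 405 and 390 TPM for neurons, 269, 395 and 336 TPM for neural crest and 428, 1013 and 700 TPM for mesenchyme. Pluripotency markers summed to 18.8, 21.2 and 26.5 TPM, nearly all from DPPA4, with TDGF1 at 0 counts in all 3 libraries (3 counts would be at most 0.211 TPM). Microglia markers summed to at most 1.76 TPM, with C1QA and TYROBP at 0 counts (at most 0.142 and 0.534 TPM by the same limit). The part of cell makeup in the GLDC difference was not tested.

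The branches kept close to the library means. The median deviation of all 43 members was 0.03, 0.00 and -0.08 log2 CPM in replicates 1, 2 and 3. The deoxynucleotide branch had -0.06, 0.15 and -0.13, and 10 listed replication genes, which included PCNA at 391 ± 29.5 TPM and GINS2 at 48.4 ± 0.89 TPM, had -0.12, 0.19 and -0.06. Both medians were highest in replicate 2. So were those of the pyrimidine branch (-0.04, 0.12 and -0.09) and of 8 listed mitosis genes (-0.14, 0.11 and 0.05). The serine and glycine branch had 0.14, -0.19 and 0.01, and the mitochondrial folate branch 0.13, -0.18 and 0.00. Amino acid response genes, led by ATF4, the factor that drives serine synthesis genes under amino acid shortage, at 543 ± 39.6 TPM, had -0.12, -0.06 and 0.20. CEBPB was the lowest of them at 5.58 ± 1.20 TPM. Of the 8 genes, 7 had their highest TPM in replicate 3, as did 5060 of 12354 detected protein-coding genes.

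**Figure D4:**
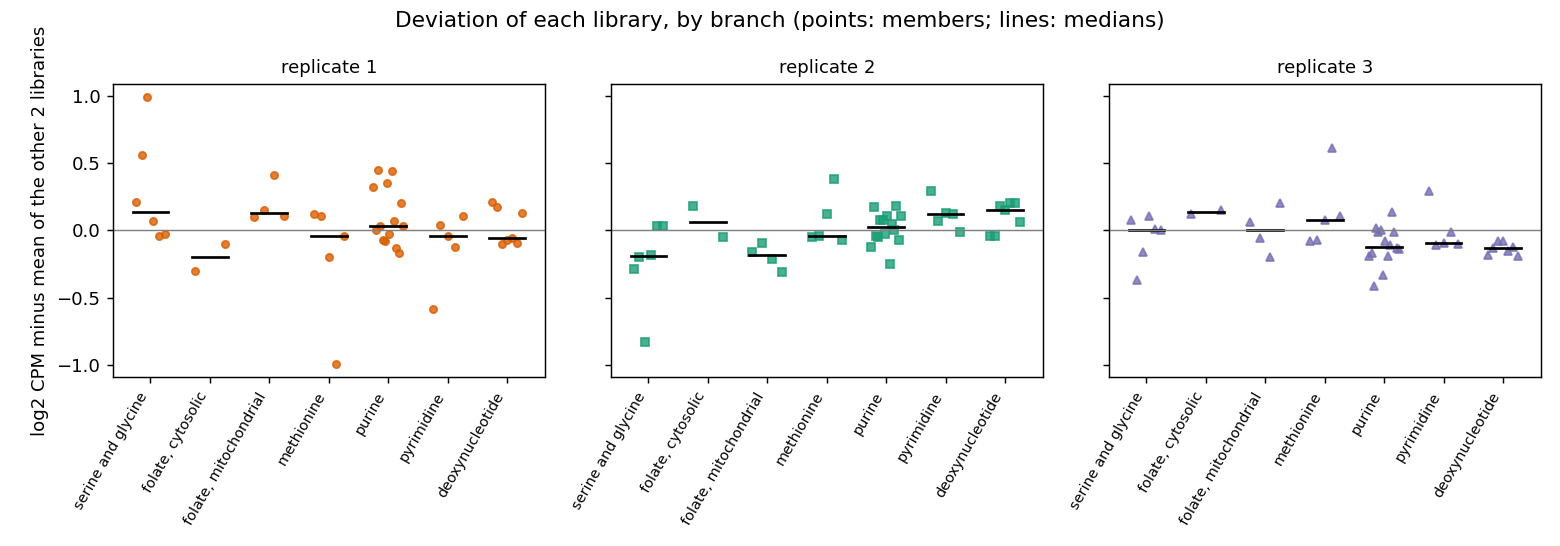
Deviation of each library from the average of the others (log2 CPM) for every member, by branch, with lines at branch medians. Branch medians stay within -0.20 and 0.15 in all 3 libraries, and the points farthest from 0 are GLDC and MTR.

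By TPM, 30 of 43 members were lowest in replicate 1, where 57.3% of detected protein-coding genes were. Replicate 2 was lowest for 9 members and replicate 3 for 4, against 19.1% and 23.5% of those genes. TPM divides by an effective length that follows the estimated mix of transcripts. For 5 of 43 members this length differed by 1.26-fold to 1.54-fold between libraries, where the median member differed by 1.08-fold. The cutoff that picked these 5 was also passed by 1667 of 12354 detected protein-coding genes. The median of those 12354 genes was 1.08-fold as well. MTRR had effective lengths of 2058, 1356 and 1338 bases, and its CPM (expected counts scaled to library size) of 26.6, 26.3 and 29.0 did not show the step seen in its TPM. UMPS had 61.9, 58.9 and 57.3 CPM, with lengths of 1835, 2627 and 2137 bases behind its lower TPM in replicate 2. CAD had 124, 186 and 189 CPM over 3610, 4796 and 4923 bases, so that its counts differed more than its TPM. RRM2 and MTHFD2L were the others.

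Some levels rest on how reads were divided between genes. Exons of the opposite-strand genes SON, SMCR8, FASTKD3, ENOSF1 and GGCX overlap those of GART, SHMT1, MTRR, TYMS and MAT2A, and the sources used here do not give strandedness. The overlapping genes were named after their values were seen. SON held 353% and SMCR8 122% as many counts as GART and SHMT1, FASTKD3 45.3% as many as MTRR, ENOSF1 13.5% as many as TYMS and GGCX 7.24% as many as MAT2A. The other overlapping genes with a symbol held at most 6.51% of a member's count, for ZBTB25 and MTHFD1. Processed copies named after a member were listed for 18 members, 66 copies in all, and held at most 2.9% of the member's count in any library, for IMPDH1.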

How the data were processed

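Polyadenylated RNA of 3 wild-type pNPC replicates was sequenced, per the labels. Reads were trimmed, aligned to GRCh38 and quantified by the authors, and the tools listed in the submitters' processing notes are STAR 2.7.11a, RSEM 1.3.1 and Trim Galore 0.6.10. The sources used here do not name the annotation release. Per the file headers, the deposited RSEM tables give an expected count (an estimate that is not normalized, exactly whole as written for at least 86.8% of genes per library, genes at 0 included), TPM and FPKM, both scaled by effective length and library.

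TPM was described per library, with a pseudocount of 1 on log scales. Excess spread was tested in edgeR 4.0.16 (R 4.3.3) after expected counts were rounded. Genes passed filterByExpr, libraries were scaled by TMM, and the residual deviance of an intercept-only fit at the trended dispersion was set against the chi-square distribution (2 degrees of freedom), with Benjamini-Hochberg adjustment. The test was checked on simulated data. Alternatives used DESeq2 1.42.0, other scales, other minimums, removal of a lowess trend on effective length, and each replicate left out. Gene types and exon overlaps came from GENCODE release 29, which matched 92.8% of identifiers, and gene coordinates and promoter windows from RefSeq, GRCh38.p14. All members could be named. Of other genes, the 2 highest detected per pathway list, the genes of the pairs, the highest and lowest of each marker or context list, 6 fixed markers and genes called for spread could be named, and some of these are not reported here. The members and lists were chosen with earlier results of these data known.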

Additional observations from a re-analysis of the deposited data

How the results depend on the processing

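All 43 members stayed detected at TPM minimums of 0.5 and 5, at an FPKM minimum of 1 and without any 1 replicate. Of the 17 pair differences, 16 kept their sign under a pseudocount of 0.1, FPKM, CPM without length scaling and each replicate left out. GLDC minus AMT turned from 0.02 to -0.31 without replicate 1, and ranged from -0.31 to 0.20 over the replicates left out. In CPM it was 0.56, positive in all 3 libraries. Branch medians depend on the scale. In FPKM those of serine and glycine, cytosolic folate, mitochondrial folate, methionine, purine, pyrimidine, deoxynucleotide and all members were 5.25, 5.44, 5.89, 5.82, 5.95, 4.82, 6.39 and 5.80, and in CPM 5.69, 6.51, 6.92, 6.89, 6.61, 5.91, 6.27 and 6.57. Deoxynucleotide thus gave up the highest median in CPM and serine and glycine took the lowest. With a pseudocount of 0.1 the median of all members was 6.30. The log2 ratio of mitochondrial to cytosolic folate enzymes was 1.07 in CPM and 0.42 per gene. Excess spread was called for 1 member, GLDC, with the length trend removed. At an unadjusted p under 0.05, which was chosen after seeing the data, 2 members and 1253 of all genes passed. Without a replicate 95 to 117 genes were called in place of 271, with 1 degree of freedom fewer, and 0 members. The adjusted p of GLDC ran from 0.0462 to 1 over the alternatives and that of MTR from 0.319 to 1. Every member had at least 348 counts in each library, and 3 libraries limit the precision of every spread given.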
